A study of Mus musculus with 16 samples.

Results

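The NF-kB genes described here are 10 genes of the pathway: the 5 transcription factor subunits Nfkb1, Nfkb2, Rela, Relb and Rel, the inhibitors Nfkbia, Nfkbie and Tnfaip3, the co-regulator Bcl3 and the target gene Icam1. They were chosen by symbol from the 55487 genes of the deposited table, and all 10 had enough reads to be among the 18565 genes tested. RNA came from the right hippocampus, taken after perfusion with PBS from females 40 weeks old, and was sequenced in 16 libraries. The cross joined PS19 mice, which overexpress the 1N4R form of human tau (MAPT) with the P301S mutation from the PrP promoter, to mice in which the gene Ch25h is knocked out. Ch25h encodes cholesterol 25-hydroxylase, an enzyme of activated myeloid cells that makes an oxysterol. The groups of 4 libraries were TCKO (tau transgene, Ch25h knockout), T (tau transgene, Ch25h intact), CKO (Ch25h knockout, no transgene) and WT (neither). The tau protein comes from a transgene with a promoter of its own, so T and TCKO model overexpression of mutant tau. The labels number the libraries without saying that each is another mouse, so p-values cover the spread among libraries, which may be technical.

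NF-kB factors are dimers of the 5 subunits. In resting cells most dimers are held in the cytoplasm by inhibitors of the IkB family. In the canonical arm, receptors for tumour necrosis factor, interleukin-1 or microbial ligands activate a kinase complex that marks the IkB proteins for degradation, and dimers of p50 (from Nfkb1) with RelA or c-Rel enter the nucleus. In the noncanonical arm, the kinase NIK (Map3k14) leads to processing of the Nfkb2 product to p52, which pairs with RelB. The factors switch on genes of inflammation, cell adhesion and survival, and also their own inhibitors, which makes a negative feedback loop. In the brain, microglia, astrocytes and endothelial cells are known to use the pathway. Much of its activation is a matter of protein location, which transcript levels do not measure.

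Expression is given as CPM, reads relative to the scaled library total, and, where genes are compared with each other, as TPM, which is also corrected for transcript length. Library totals ran from 15064309 to 34348284 reads. Ch25h reads went with the genotype label in every library: TCKO libraries held 0 to 1 Ch25h reads, T libraries 133 to 300, CKO libraries 0 to 2 and WT libraries 18 to 39.7. Markers of neurons, astrocytes, oligodendrocytes and microglia were all read in every group. T replicate 4 and WT replicate 1 stood apart by their choroid plexus markers, which summed to 7819 and 7450 CPM, against at most 460 CPM in any other library. WT libraries also differed in oligodendrocyte markers, with sums of 4824 and 3549 CPM in replicates 1 and 5 and 13288 and 15606 in 2 and 4. Nfkb2 and Nfkbie were likewise lower in WT replicates 1 and 5 than in 2 and 4. The part of this split in the results was not tested.

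Promoter sequence was available for 8 of the 10 genes, without Nfkb1 and Relb, and is shown because NF-kB binds a known short DNA element, the kappa-B site. The sequences are RefSeq windows on build GRCm38.p6, written 5′ to 3′ on the strand of the gene. Capitals mark letters that match GGGNNNTTCC, GGAANNTCC or the published degenerate kappa-B consensus on either strand. The 3 patterns overlap each other. For Icam1 and Nfkbia, the 250 bases before the start site are printed, at chr9:21015690-21015939 (plus strand) and chr12:55492648-55492897 (minus strand).

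Icam1: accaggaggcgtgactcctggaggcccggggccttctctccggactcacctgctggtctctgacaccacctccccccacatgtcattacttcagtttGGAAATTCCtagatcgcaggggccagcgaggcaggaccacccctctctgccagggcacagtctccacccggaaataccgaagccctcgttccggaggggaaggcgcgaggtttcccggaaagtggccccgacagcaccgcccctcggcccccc
Nfkbia: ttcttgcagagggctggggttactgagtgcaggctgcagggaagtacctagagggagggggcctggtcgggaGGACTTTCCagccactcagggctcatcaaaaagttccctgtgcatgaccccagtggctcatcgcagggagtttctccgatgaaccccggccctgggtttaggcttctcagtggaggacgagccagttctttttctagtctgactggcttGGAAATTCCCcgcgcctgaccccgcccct

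The Icam1 window held 1 match, which began 153 bases before the RefSeq start site. That start site lies 45 bases upstream of the GENCODE gene start, so most of the bases that follow it in the window lie outside the GENCODE gene. Nfkbia held a match 29 bases and another 178 bases before its start site. For further members, stretches of 30 bases around a match are shown: Bcl3 at chr7:19822734-19822763 (minus strand), where the match lies just after the start site, Tnfaip3 at chr10:19015409-19015438 (minus), Rel at chr11:23771042-23771071 (minus), Nfkbie at chr17:45555584-45555613 (plus) and Nfkb2 at chr19:46304688-46304717 (plus).

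Bcl3: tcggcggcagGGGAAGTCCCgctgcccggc
Tnfaip3: gactGGAATTTCCatcGGAAATCCCCctgt
Rel: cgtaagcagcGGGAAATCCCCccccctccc
Nfkbie: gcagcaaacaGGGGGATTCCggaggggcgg
Nfkb2: ggatcgtcacGGGAATTCCCCccctcgggg

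In all, 7 of the 8 genes with a window held at least 1 match, and Rela held none. Among all 27025 genes with such a window, 14.8% held at least 1 (13.1% of 32851 windows); by pattern, 6.31% of genes held GGGNNNTTCC, 4.86% held GGAANNTCC and 9.55% held the consensus. A match describes the letters in the window and is not evidence of binding in these samples.

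Per unit of length, Nfkbia was the most abundant of the 10 genes in every group. It averaged 77.8 ± 26.9 TPM in TCKO, 117 ± 28.9 in T, 58.4 ± 18.5 in CKO and 58.7 ± 7.93 in WT (SD, n = 4 each). Rela was the most abundant subunit, at 16 ± 1.8 TPM in TCKO, 17.9 ± 2.47 in T, 12.9 ± 1.6 in CKO and 11 ± 1.58 in WT. Rel was the scarcest subunit, with group means of 0.514 to 0.746 TPM. Group means of Nfkb1, Nfkb2 and Relb lay between 1.44 TPM (Relb in CKO) and 6.44 TPM (Nfkb1 in T). Bcl3 was the gene with the fewest reads, 41 in all TCKO libraries together, 248 in T, 15 in CKO and 15 in WT, and its fold changes had the largest standard errors of the 10.

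The transgene, where Ch25h was intact, went with higher levels of most of these genes. In T against WT, 8 of the 10 were higher and 0 lower, against 13% of all genes tested called higher and 11.2% called lower. Their median log2 fold change was 0.92, against -0.01 over all genes tested. All 4 T libraries lay above all 4 WT libraries for 7 of the 10, where 13.3% of all genes did so and 11.8% did the reverse. Icam1 and Bcl3 differed most, and the subunits and IkB inhibitors that passed were 1.54-fold to 2.11-fold higher. Loss of Ch25h in transgenic mice went with lower Nfkb1, Bcl3 and Icam1. In TCKO against T these 3 genes were lower and 0 were higher (8.05% and 4.81% of all genes tested), with a median over the 10 of -0.56, against 0.02 over all genes. All 4 TCKO libraries lay below all 4 T libraries for these 3 genes and for Tnfaip3, where 9.65% of all genes did so and 5.14% did the reverse. The T libraries enter both of these comparisons. Microglia markers moved alike, with sums of 821 to 1474 CPM in TCKO, 2873 to 3852 in T and 590 to 828 in WT; in bulk tissue, fewer cells of a type and less RNA per cell cannot be told apart, and the part of the markers' shift in these results was not tested. Ordered by mean CPM, T came first for all 10 genes. The T libraries did not overlap the group next in order for Nfkb1 (CKO next) and for Bcl3 and Icam1 (TCKO next), and all other neighbours in the order overlapped.

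**Figure D1:**
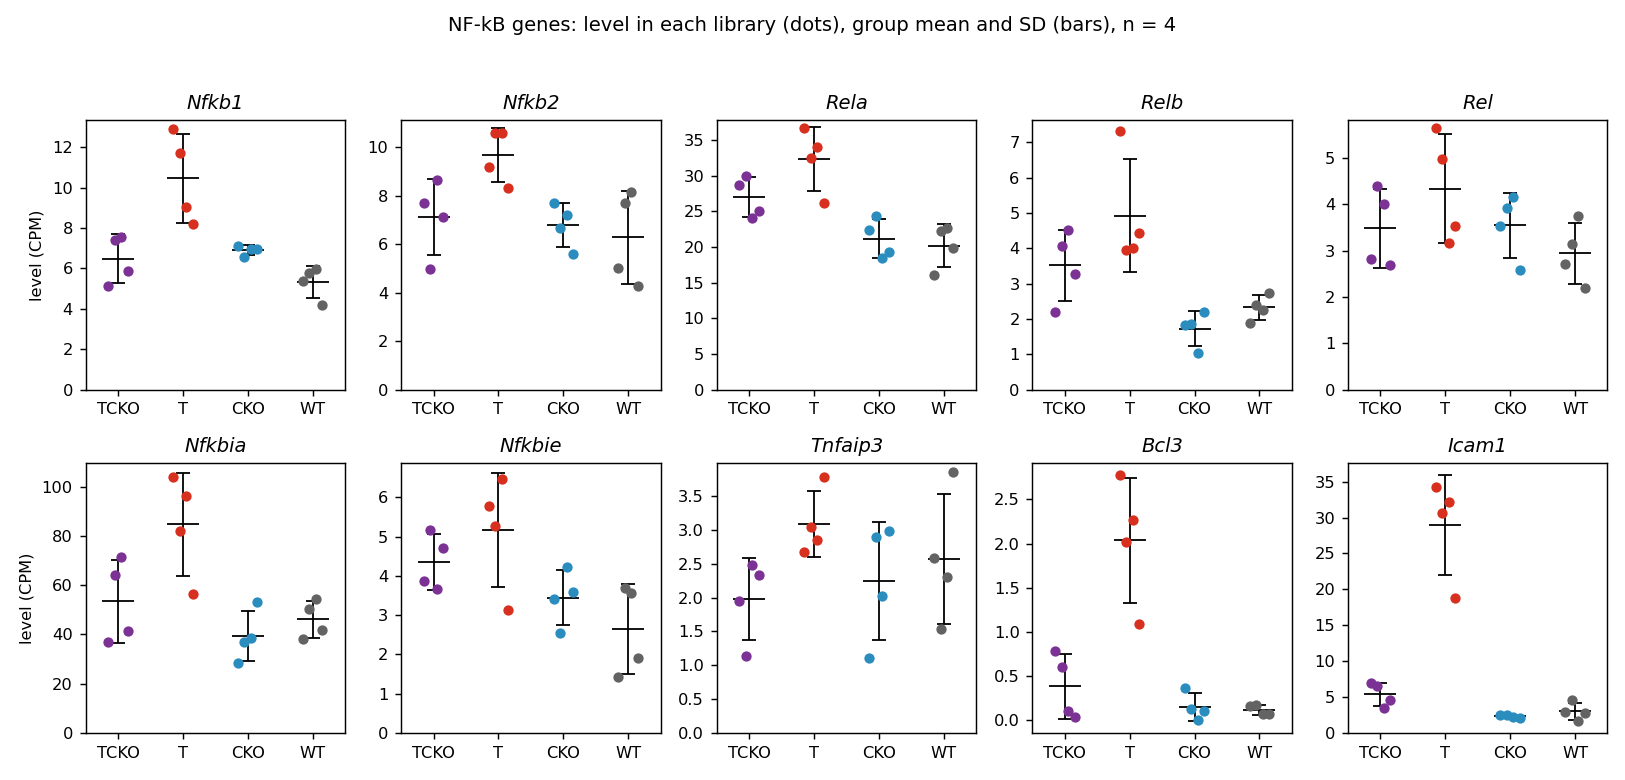
Level of each of the 10 genes in CPM (y axes, each on its own scale), 1 dot per library, with the group mean and SD (n = 4) for TCKO, T, CKO and WT. T has the highest mean in every panel; for Icam1 the T libraries sit between 18.8 and 34.2 CPM and the libraries of the other groups at 6.85 CPM or less.

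Among the subunits, Nfkb1 (chromosome 3, 135584655 to 135691547, minus strand; all gene positions are on GRCm38), the gene of p105 and p50, was read at 5.12, 7.41, 7.56 and 5.85 CPM in TCKO, 12.9, 11.7, 9.05 and 8.21 CPM in T, 7.09, 6.55, 6.96 and 6.98 CPM in CKO and 5.39, 5.78, 5.98 and 4.17 CPM in WT. The T libraries lay above all others. The log2 fold change was 0.97 ± 0.18 (SE) in T against WT (edgeR quasi-likelihood test, Benjamini-Hochberg adjusted p = 0.000917) and -0.69 ± 0.18 in TCKO against T (adjusted p = 0.017). The second call was lost without T replicate 2, TCKO replicate 2 or TCKO replicate 5 (adjusted p = 0.0571 to 0.0744) and in a fit of the 8 compared libraries (0.0634).

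Rela (chromosome 19, 5637483 to 5648130, plus strand) encodes the transactivating subunit of the canonical dimer. It was read at 28.7, 30, 24.1 and 25.1 CPM in TCKO, 36.6, 32.5, 34 and 26.2 CPM in T, 22.4, 24.4, 18.5 and 19.3 CPM in CKO and 16.1, 22.2, 22.7 and 19.8 CPM in WT. T and WT did not overlap, while TCKO libraries reached into the range of both T and CKO. Rela rose in T relative to WT by 0.68 ± 0.14 (adjusted p = 0.00192) and was at -0.26 ± 0.14 in TCKO against T (adjusted p = 0.224).

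Rel (chromosome 11, 23736847 to 23770970, minus strand), which encodes c-Rel, did not pass in any comparison. Its levels were 2.82, 4.4, 4.0 and 2.69 CPM in TCKO, 5.64, 4.98, 3.17 and 3.53 CPM in T, 3.52, 3.92, 4.16 and 2.57 CPM in CKO and 2.71, 3.14, 3.74 and 2.19 CPM in WT. All groups overlapped. The log2 fold change was 0.55 ± 0.25 in T against WT (adjusted p = 0.12).

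The noncanonical pair were Nfkb2 (chromosome 19, 46304320 to 46312385, plus strand), the gene of p100 and p52, and Relb (chromosome 7, 19606217 to 19629438, minus strand). Nfkb2 was at 7.72, 4.97, 8.64 and 7.14 CPM in TCKO, 9.2, 10.6, 10.6 and 8.34 CPM in T, 7.7, 6.68, 7.22 and 5.58 CPM in CKO and 5.04, 7.71, 8.14 and 4.27 CPM in WT. The lowest T library was just above the highest WT library. Nfkb2 rose in T relative to WT by 0.62 ± 0.21 (adjusted p = 0.0438), a call that was lost without any 1 of 8 libraries (WT replicates 1 and 5, CKO 2, T 2, 3 and 4, TCKO 2 and 5; adjusted p = 0.0514 to 0.138) and without the choroid-rich libraries (0.183) and from the 8 compared libraries (0.0631). Rela and Nfkb2 lie on the same chromosome as Ch25h, 28.8 and 11.8 Mb from it. Nfkb2 shares 299 exon bases with Psd on the opposite strand, a gene at 68.2 to 187 CPM. It also shares 531 with the noncoding gene AC114539.1 on that strand, whose level was not examined. The sources used here do not state whether strand was used in counting.

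Relb was at 2.21, 4.06, 4.52 and 3.28 CPM in TCKO, 7.32, 3.96, 4.0 and 4.43 CPM in T, 1.84, 1.85, 1.04 and 2.2 CPM in CKO and 1.9, 2.4, 2.27 and 2.75 CPM in WT. T replicate 2 was well above the other T libraries, and even so no T library reached down to WT. Relb rose in T relative to WT by 1.08 ± 0.28 (adjusted p = 0.00946). Its TCKO libraries overlapped the T range, and the log2 fold change in TCKO against T was -0.48 ± 0.27 (adjusted p = 0.262).

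The make-up of the subunit pool was described by each subunit's share of their summed TPM. Rela held 60.0 ± 4.68% in TCKO, 55.3 ± 2.94% in T, 58.3 ± 3.39% in CKO and 58.9 ± 3.05% in WT. Nfkb2 and Relb together held 21.8 ± 3.79% in TCKO, 22.9 ± 1.37% in T, 19.6 ± 1.36% in CKO and 21.6 ± 1.58% in WT. No difference in the noncanonical share passed the threshold in any comparison. The difference was 1.3 percentage points in T against WT (exact two-sided permutation p = 0.286), -1.99 in CKO against WT (exact p = 0.171), -1.18 in TCKO against T (exact p = 0.6) and 2.11 in TCKO against CKO (exact p = 0.371). Adjusted over the 4 comparisons, these exact p-values were 0.495, 0.495, 0.6 and 0.495. The smallest exact p that 70 splits allow is 0.0286, so a fully separated comparison on its own could not have passed after the adjustment. The summed TPM was 38.4, 35.1, 30.3 and 26.4 in T, against 16.1, 21.1, 20.3 and 17.4 in WT. It was 26.6, 28.5, 26.6 and 24.7 in TCKO, against 23.4, 23.4, 20.4 and 20.9 in CKO. Every T library was thus above every WT library, and every TCKO library above every CKO library, while T and TCKO overlapped. Of all genes tested, 13.3% and 5.32% did so by CPM. The sums were not tested.

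Of the inhibitors, Nfkbia (chromosome 12, 55489410 to 55492647, minus strand) encodes IkB-alpha, the classic feedback inhibitor and itself an NF-kB target. It was at 37.0, 64.0, 71.4 and 41.3 CPM in TCKO, 104, 82.2, 96.4 and 56.4 CPM in T, 28.5, 37.0, 38.6 and 53.3 CPM in CKO and 38.2, 50.3, 54.4 and 41.9 CPM in WT. T replicate 5, the lowest of its group, was only just above the highest WT library, and TCKO overlapped every other group. Nfkbia rose in T relative to WT by 0.88 ± 0.23 (adjusted p = 0.0118, or 0.0707 without the choroid-rich libraries). With replicate numbers as blocks it was at 0.71 (adjusted p = 0.0497). In TCKO against T it was at -0.66 ± 0.23 (adjusted p = 0.0694), and it passed there without T replicate 5 or TCKO replicate 4 (0.0213 to 0.0307) and in DESeq2 (0.0267).

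Nfkbie (chromosome 17, 45555703 to 45563169, plus strand) encodes IkB-epsilon. Its levels were 3.86, 5.16, 3.67 and 4.72 CPM in TCKO, 5.79, 5.28, 6.46 and 3.12 CPM in T, 3.4, 2.54, 4.23 and 3.6 CPM in CKO and 1.42, 3.68, 3.56 and 1.91 CPM in WT. T replicate 5 fell within the WT range, so the groups overlapped. Nfkbie rose in T relative to WT by 0.96 ± 0.3 (adjusted p = 0.0258), but with replicate numbers as blocks its adjusted p was 0.0782, and without WT 1, WT 5, T 2 or T 4 it was 0.0719 to 0.0827. It was 0.156 without the choroid-rich libraries and 0.0676 from the 8 compared libraries.

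Tnfaip3 (chromosome 10, 19000910 to 19015657, minus strand) encodes A20, a ubiquitin-editing enzyme that ends NF-kB signalling and is a textbook NF-kB target. It was at 1.95, 1.14, 2.48 and 2.34 CPM in TCKO, 2.67, 3.04, 2.85 and 3.78 CPM in T, 1.11, 2.89, 2.02 and 2.98 CPM in CKO and 2.58, 1.54, 2.3 and 3.85 CPM in WT. WT libraries spanned the whole T range. The log2 fold change was 0.27 ± 0.33 in T against WT (adjusted p = 0.615). All TCKO libraries were below all T libraries, but at -0.64 ± 0.33 the difference did not pass (adjusted p = 0.224).

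Bcl3 (chromosome 7, 19808462 to 19822770, minus strand) encodes an atypical IkB protein that binds p50 and p52 dimers in the nucleus. It had 18, 19, 3 and 1 reads in TCKO, 87, 55, 71 and 35 in T, 9, 3, 0 and 3 in CKO and 5, 6, 2 and 2 in WT. T libraries stood above all others, and TCKO libraries were split between a higher and a lower pair. Bcl3 rose by 4.01 ± 0.76 in T against WT (adjusted p = 0.00128) and fell to 0.383 ± 0.364 CPM in TCKO, against 2.04 ± 0.703 CPM in T, a log2 fold change of -2.4 ± 0.69 (adjusted p = 0.0294). The fall was no longer called without T 2, T 3, T 4, TCKO 4 or TCKO 5 (adjusted p = 0.0574 to 0.0925), without the choroid-rich libraries (0.0724), from the 8 compared libraries (0.0596), or with an offset for the effective length (0.0777). That length, as deposited, ran from 170 to 1341 bases over the libraries for this gene, which makes its TPM uneven.

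Icam1 (chromosome 9, 21015985 to 21028817, plus strand) encodes an adhesion molecule that leukocytes bind on endothelium and that activated glia also carry. It had the smallest adjusted p of the 10 in both T against WT and TCKO against T. Icam1 was read at 6.85, 6.53, 3.48 and 4.57 CPM in TCKO, 34.2, 30.7, 32.1 and 18.8 CPM in T, 2.42, 2.41, 2.21 and 2.02 CPM in CKO and 2.87, 4.51, 1.66 and 2.72 CPM in WT. Every T library was far above every library of the other groups. The level was 9.8-fold higher in T than in WT (log2 fold change 3.29 ± 0.28, adjusted p = 1.4e-06) and 5.4-fold lower in TCKO than in T (log2 fold change -2.43 ± 0.27, adjusted p = 3.69e-05). Both calls held in all 25 alternative fits of each, and the first ranged there from 3.1 to 3.58. By log2 fold change, Icam1 ranked 195th of the 18565 genes from the top in T against WT, and Bcl3 ranked 107th. An antisense gene, Gm47079, shares 511 exon bases with Icam1 and was at 0.224 to 1.55 CPM in every library.

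**Figure D2:**
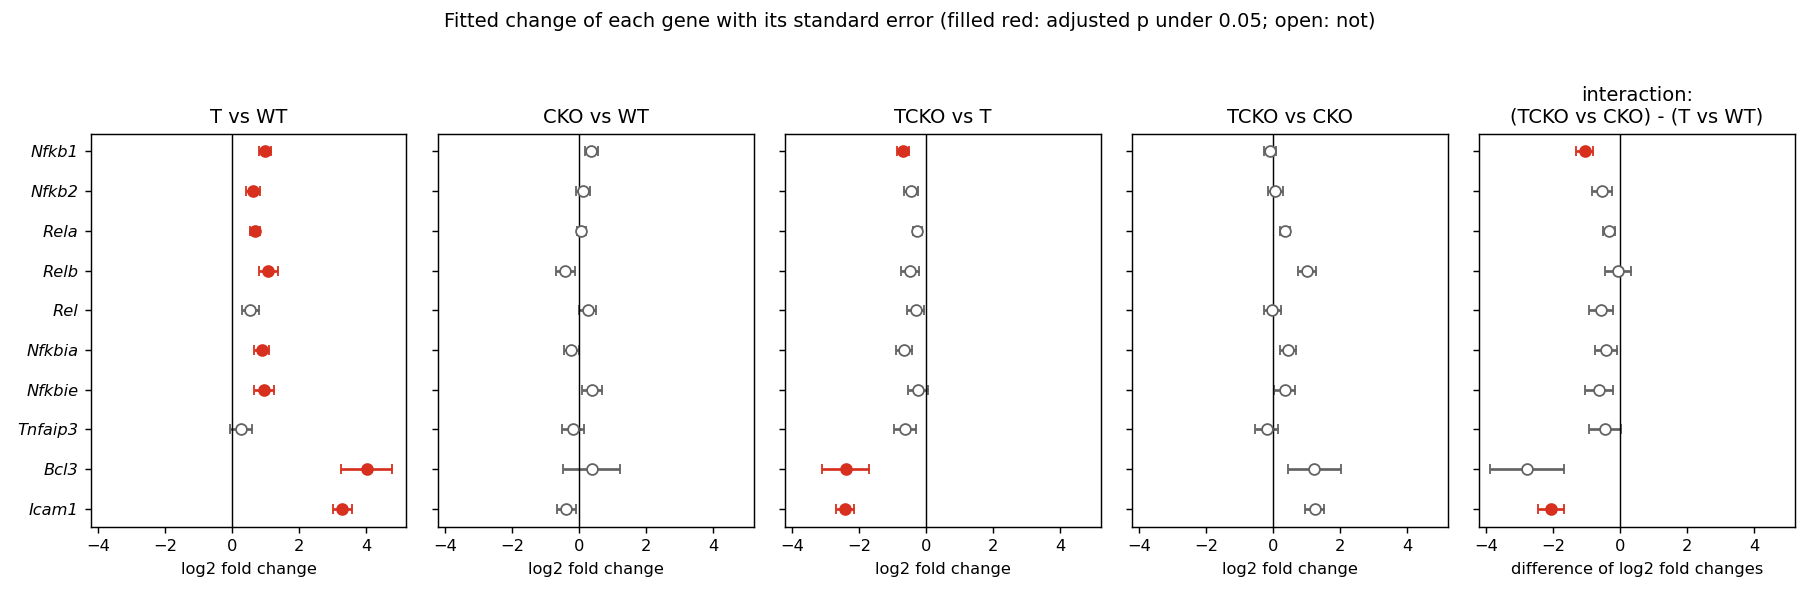
Fitted log2 fold change of the 10 genes with its standard error (x axes) in each of the 4 pairwise comparisons and in the interaction; filled red points had an adjusted p under 0.05. There are 8 filled points in T against WT, 3 in TCKO against T, 2 in the interaction and 0 in the remaining panels.

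Without the transgene, loss of Ch25h left no member past the threshold. In CKO against WT, 0 of the 10 were called in either direction (0.0% of all genes tested were called higher and 0.0108% lower). An unadjusted p under 0.05 was held by 0 of the 10, beside 2098 of all 18565 genes tested. DESeq2 and limma voom called 0 of the 10. The log2 fold changes ranged from -0.41 ± 0.28 for Relb to 0.38 ± 0.3 for Nfkbie and 0.38 ± 0.85 for Bcl3. Nfkb1 was the only member whose CKO and WT libraries did not overlap (4.88% of all genes did so with CKO higher and 4.06% with CKO lower), at 0.37 ± 0.18 (adjusted p = 0.451). Icam1 was at 2.27 ± 0.189 CPM in CKO and 2.94 ± 1.18 CPM in WT, and Relb at 1.74 ± 0.493 CPM in CKO and 2.33 ± 0.351 CPM in WT (SD, n = 4 each).

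With Ch25h lost, the transgene left 0 of the 10 genes past the threshold in TCKO against CKO (0.35% of all genes tested were called higher and 0.189% lower). There were 3 with an unadjusted p under 0.05 (Rela, Relb and Icam1), beside 3240 of all 18565 genes tested. DESeq2 called 2 higher (Relb and Icam1) and limma voom 0. Icam1 and Relb had TCKO libraries wholly above CKO, as did 5.32% of all genes, while 4.93% lay wholly below. Icam1 was at 5.36 ± 1.61 CPM in TCKO and 2.27 ± 0.189 CPM in CKO, a log2 fold change of 1.24 ± 0.28 (adjusted p = 0.0573), and it passed without WT 2, WT 4, T 5 or TCKO 4 (0.0297 to 0.0496). Relb was at 3.52 ± 1.01 CPM in TCKO and 1.74 ± 0.493 CPM in CKO, a log2 fold change of 1.01 ± 0.28 (adjusted p = 0.0952).

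Whether the transgene's change differed with the Ch25h genotype was tested by the interaction, TCKO against CKO minus T against WT. It was negative and past the threshold for 2 of the 10 genes (2.45% of all genes tested were called lower and 0.695% higher). For Icam1 it was -2.05 ± 0.39 (adjusted p = 0.00917; 0.0035 with the replicate block), and for Nfkb1 -1.06 ± 0.25 (adjusted p = 0.0302; 0.0356 with the block). The Nfkb1 interaction was lost without any 1 of 8 libraries (WT 5, CKO 1, 2 and 4, T 2 and 3, TCKO 2 and 5; adjusted p = 0.0506 to 0.0743) and with the effective length offset (0.0601). For Bcl3 the estimate was larger but uncertain, at -2.78 ± 1.1 (adjusted p = 0.18). For Relb it was near 0, at -0.07 ± 0.39 (adjusted p = 0.948), and for Rela -0.33 ± 0.19 (adjusted p = 0.383).

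The wider pathway was described with 4 lists of 96 genes in all. Upstream, ligands and receptors had 16 of 20 genes tested, since Tnf, Lta, Tnfsf11 and Cd40lg had too few reads. Of the 16, 13 were higher and 0 lower in T against WT (median 1.8), beside 13% and 11.2% of all genes. In TCKO against T, 10 were lower and 0 higher (median -1.38), beside 8.05% and 4.81% of all genes. Tnfrsf1a, the main receptor for tumour necrosis factor, averaged 15.7 ± 6.19 CPM in TCKO, 53.1 ± 7.99 in T, 10.8 ± 2.12 in CKO and 11.1 ± 2.28 in WT. Its log2 fold change was 2.26 ± 0.24 in T against WT (adjusted p = 6.03e-06) and -1.75 ± 0.24 in TCKO against T (adjusted p = 0.000129). Among the Toll-like receptors, Tlr2, which senses bacterial lipopeptides, rose by 4.28 ± 0.48 in T against WT (adjusted p = 8.77e-06) and Tlr7, a sensor of single-stranded RNA, by 2.73 ± 0.3 (adjusted p = 6.71e-06). Tlr7 fell by 1.97 in TCKO against T (SE 0.29, adjusted p = 0.000235), and Tlr3, a sensor of double-stranded RNA, fell by 0.98 (SE 0.14, adjusted p = 0.000156). Tlr2 was at -2.42 ± 0.43 in TCKO against T (adjusted p = 0.00131). Tnf itself had 4 reads in TCKO, 26 in T, 3 in CKO and 3 in WT.

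Of the interleukin-1 ligands, Il1a and Il1b rose by 2.29 ± 0.33 and 2.45 ± 0.4 in T against WT (adjusted p = 0.000114 and 0.000354) and were at -1.9 ± 0.33 and -2.02 ± 0.39 in TCKO against T (adjusted p = 0.001 and 0.00265). Both were picked after their values were seen. Ltbr, the lymphotoxin receptor that feeds the noncanonical arm, rose by 1.63 ± 0.21 in T against WT (adjusted p = 3.24e-05), and was likewise picked afterwards. In TCKO against T it was at -1.07 ± 0.2 (adjusted p = 0.0022).

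Adaptors and kinases form the cytoplasmic relay. Of 25 tested, 10 were higher and 2 lower in T against WT (median 0.27), beside 13% and 11.2% of all genes, and 3 were lower and 0 higher in TCKO against T (median -0.19), beside 8.05% and 4.81%. Myd88, the adaptor of Toll-like and interleukin-1 receptors, averaged 7.99 ± 1.01 CPM in TCKO, 17 ± 3.66 in T, 8.26 ± 0.352 in CKO and 6.83 ± 1.94 in WT. It rose by 1.31 ± 0.19 in T against WT (adjusted p = 0.000135) and was at -1.08 ± 0.19 in TCKO against T (adjusted p = 0.00127). Irak4, the kinase that MyD88 recruits, rose by 1.66 ± 0.26 in T against WT (adjusted p = 0.000223) and was at -1.24 ± 0.25 in TCKO against T (adjusted p = 0.00381). Map3k14, the kinase NIK, rose by 1.4 ± 0.23 in T against WT (adjusted p = 0.0004) and was at -0.66 ± 0.23 in TCKO against T (adjusted p = 0.0679). Ripk1, a kinase of the tumour necrosis factor receptor complex, was at -1.01 ± 0.27 in TCKO against T (adjusted p = 0.0206; 0.0725 to 0.0822 without T 2 or TCKO 5, and 0.202 at most over 25 alternative fits). The 2 that fell in T against WT were Ikbkg, the scaffold of the IkB kinase complex, at -0.38 ± 0.12 (adjusted p = 0.0313) and Tbk1, a related kinase, at -0.44 ± 0.11 (adjusted p = 0.00837).

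Of 20 further inhibitors and feedback genes tested (Tnip3 had too few reads), 4 were higher and 1 lower in T against WT (median 0.23), beside 13% and 11.2% of all genes, and 2 were higher and 1 lower in TCKO against T (median -0.09), beside 4.81% and 8.05%. Pdlim2, which promotes breakdown of nuclear RelA, rose in T relative to WT by 1.5 ± 0.3 (adjusted p = 0.00212). Its log2 fold change in TCKO against T was -0.86 ± 0.3 (adjusted p = 0.0685). Nlrc5, an inducible NLR protein that also drives MHC class I genes, rose by 3.15 ± 0.63 in T against WT (adjusted p = 0.00184). It was at -2.9 ± 0.62 in TCKO against T (adjusted p = 0.0054) and 3.13 ± 0.87 in TCKO against CKO (adjusted p = 0.0921). Its interaction was near 0, at -0.02 (adjusted p = 0.978). Reads of Nlrc5 were few, 48 in TCKO, 383 in T, 4 in CKO and 44 in WT. Nkrf, an NF-kB repressing factor, went the other way: it averaged 30.5 ± 6.41 CPM in TCKO, 19.5 ± 3.77 in T, 39.4 ± 3.34 in CKO and 36.8 ± 2.33 in WT. Its log2 fold change was -0.91 ± 0.15 in T against WT (adjusted p = 0.000409) and 0.64 ± 0.15 in TCKO against T (adjusted p = 0.0104), the second being lost in the fit of the 8 compared libraries and in that without the choroid-rich ones (0.0794 at most). The deubiquitinase gene Cyld was at 0.45 ± 0.14 in TCKO against T (adjusted p = 0.0427), a call lost in 17 of 25 alternative fits (0.131 at most), among them those without any 1 of 11 libraries.

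Further target genes, like Icam1, were mostly higher in T. Of 26 tested, 21 were higher and 1 lower in T against WT (median 1.8), beside 13% and 11.2% of all genes. In TCKO against T, 18 were lower and 0 higher (median -1.3), beside 8.05% and 4.81% of all genes. Sele, Il6, Saa3 and Ccl20 had too few reads. The chemokine gene Ccl2 averaged 0.881 ± 0.668 CPM in TCKO, 14.3 ± 4.3 in T, 0.172 ± 0.103 in CKO and 0.31 ± 0.0857 in WT. It rose by 5.51 ± 0.49 in T against WT (adjusted p = 1.61e-06) and was at -4.02 ± 0.45 in TCKO against T (adjusted p = 3.57e-05). Csf1, a growth factor of microglia, rose by 1.98 ± 0.2 in T against WT (adjusted p = 4.1e-06). In TCKO against T it was at -1.21 ± 0.2 (adjusted p = 0.000583). Tap1, the peptide transporter of antigen presentation, averaged 4.06 ± 1.99 CPM in TCKO and 15.7 ± 3.1 in T, a log2 fold change of -1.94 ± 0.27 (adjusted p = 0.000154). Bcl2a1b, a survival gene of myeloid cells, rose by 3.54 ± 0.37 in T against WT (adjusted p = 4.53e-06) and was at -2.43 ± 0.35 in TCKO against T (adjusted p = 0.000207), although near-identical copies may share its reads. The 1 target that fell in T against WT was Sod2, mitochondrial superoxide dismutase, at -0.39 ± 0.11 (adjusted p = 0.0137).

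In CKO against WT, edgeR, DESeq2 and limma voom called 0 genes in each list. The tested genes were 16 ligands and receptors, 25 adaptors and kinases, 20 further inhibitors and 26 further targets, in that order. An unadjusted p under 0.05 was held by 0, 0, 2 and 3 of them, beside 2098 of all 18565 genes tested. In TCKO against CKO edgeR and limma voom again called 0 in each list, and DESeq2 called 3, 0, 2 and 3 higher. There, 5, 7, 6 and 11 had an unadjusted p under 0.05, beside 3240 of all 18565 genes tested. The interaction was negative and past the threshold for 5, 1, 0 and 7 genes of the 4 lists, in the same order, and positive and past it for 0 in each, beside 2.45% and 0.695% of all genes. DESeq2 called 8, 1, 1 and 13 lower, limma voom called 4, 1, 0 and 4 lower, and neither called any higher. An unadjusted p under 0.05 for the interaction was held by 3486 of all 18565 genes tested. In the lists it was held by 10, 4, 3 and 17 genes, above that share only in the first and last list. The smallest p-values among them were those of Tlr7 at -2.41 ± 0.41 (adjusted p = 0.0052) and Tnfrsf1a at -1.71 ± 0.33 (0.0108), Myd88 at -1.36 ± 0.27 (0.014), and Tap1 at -1.97 ± 0.38 (0.0101) and Bcl2a1b at -2.5 ± 0.5 (0.0131).

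**Figure D3:**
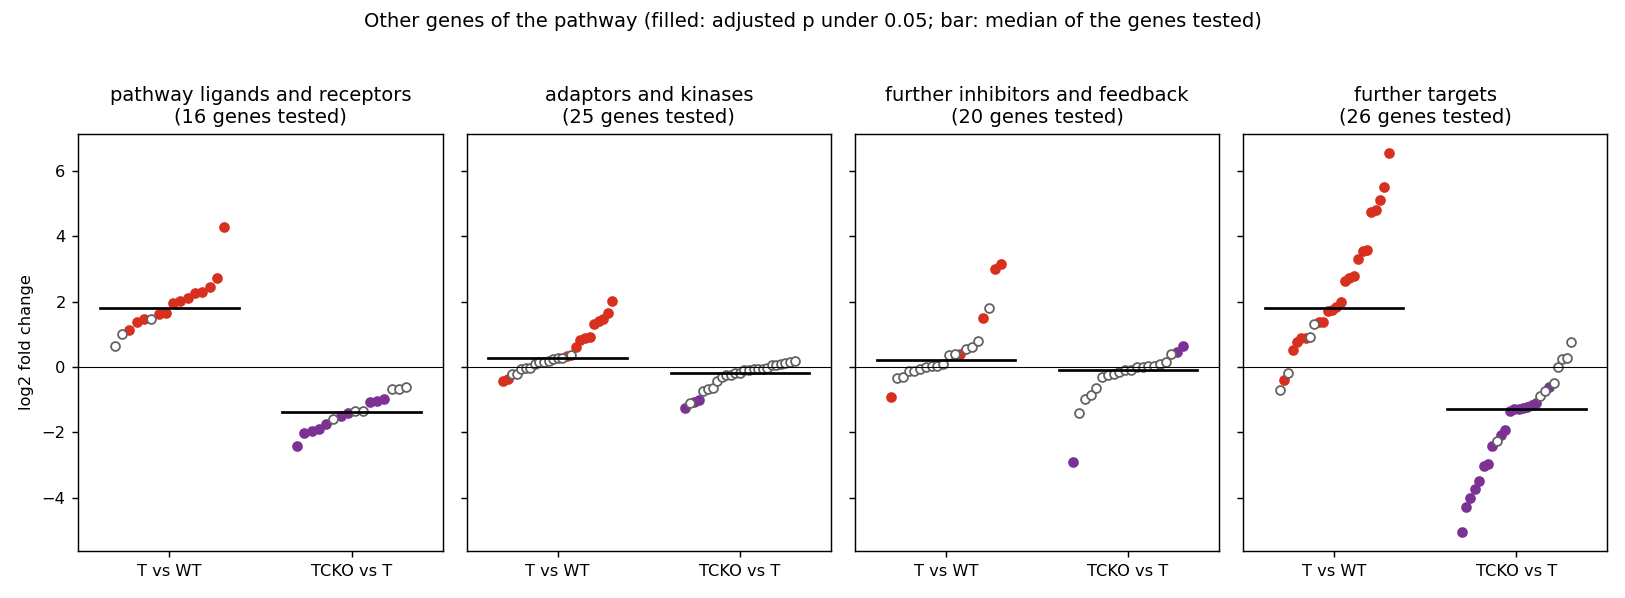
Log2 fold change (y axis) of each tested gene of the 4 wider lists in T against WT and in TCKO against T; filled points had an adjusted p under 0.05 and the bar is the list's median. The medians of the ligands and receptors and of the further targets are 1.8 in T against WT, and -1.38 and -1.3 in TCKO against T.

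Cell type markers moved with these results. The sum of the 12 microglia markers, given above for TCKO, T and WT, was 668 to 712 CPM in CKO. Of the 12, 11 were higher in T than in WT and 10 lower in TCKO than in T. Over all genes tested, 13% were called higher and 11.2% lower in T against WT. In TCKO against T, 8.05% were called lower and 4.81% higher. The 10 astrocyte markers summed to 5837 to 8977 CPM in TCKO, 11505 to 15096 in T, 5135 to 5738 in CKO and 6020 to 6716 in WT, with 5 higher in T than in WT and 5 lower in TCKO than in T. Endothelium and pericyte markers, of the vessel cells on which Icam1 is best known, summed to 219 to 271 CPM in TCKO, 284 to 370 in T, 254 to 306 in CKO and 260 to 314 in WT, with 3 of 13 higher in T than in WT and 2 lower in TCKO than in T. The part of these shifts, too, was not tested.

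Blood cell markers were scarce. T cell markers summed to 3.71 to 6.81 CPM in TCKO, 15.1 to 22.1 in T, 4.04 to 4.75 in CKO and 4.25 to 4.97 in WT, with 9 of 10 higher in T than in WT, 7 lower in TCKO than in T, and Cd3d at 0 in CKO. B cell markers summed to 0.624 to 1.17 CPM in TCKO, 1.84 to 2.97 in T, 0.586 to 0.948 in CKO and 0.54 to 1.07 in WT. Only 1 of the 5 could be tested, and it was higher in T than in WT and lower in TCKO than in T. Ms4a1 was at 0 in CKO. Neutrophil and monocyte markers summed to 10.7 to 15.3 CPM in TCKO, 9.65 to 15.6 in T, 5.28 to 17.5 in CKO and 5.99 to 9.71 in WT, with Ly6g, a neutrophil marker, at 0 reads in every library. Of the 7 tested, 3 were higher in T than in WT and 2 lower in TCKO than in T. Neuron markers summed to 8345 to 11772 CPM in TCKO, 5571 to 8681 in T, 10031 to 11013 in CKO and 9182 to 10073 in WT, with 4 of 9 lower in T than in WT and 2 higher in TCKO than in T. Oligodendrocyte markers summed to 13411 to 17678 CPM in TCKO, 10096 to 22047 in T, 5277 to 8843 in CKO and 3549 to 15606 in WT, with 4 of 8 higher in T than in WT. In TCKO against T, edgeR, DESeq2 and limma voom called 0 of the 8. An unadjusted p under 0.05 was held by 0 of the 8, beside 5200 of all 18565 genes tested.

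**Figure D4:**
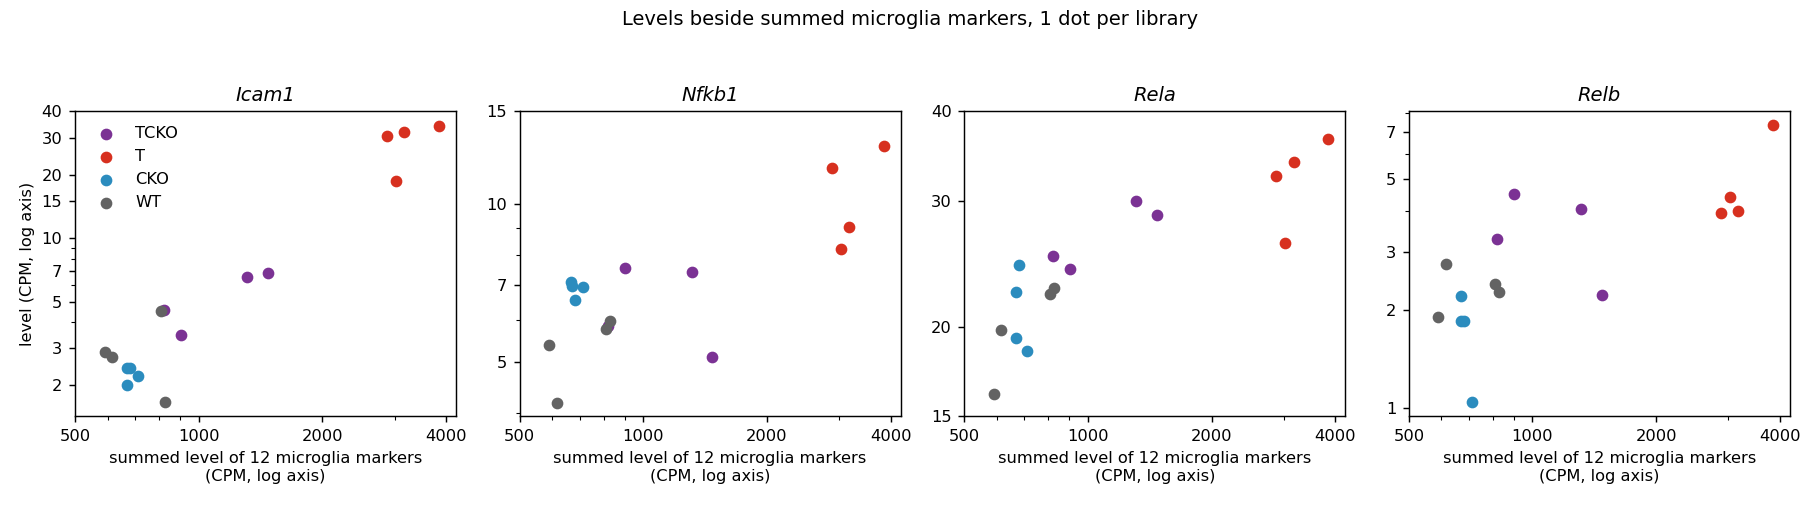
Level of Icam1, Nfkb1, Rela and Relb (y axes, CPM, log scale) beside the summed level of 12 microglia markers (x axes, CPM, log scale), 1 dot per library, coloured by genotype. The T libraries lie at 2873 to 3852 CPM of microglia markers and the libraries of the other groups at 1474 CPM or less.

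Genes with a profile like that of a member were found by the mean absolute difference of centred log2 CPM over the 16 libraries. Among the 3 closest to Icam1 were St14 (0.248) and S1pr3 (0.281). Closest to Bcl3 were S1pr3 (0.418), Igsf6 (0.419) and Rab7b (0.424), at larger distances. Closest to Nfkb1 were Snx18 (0.113), Wnk1 (0.115) and Nfasc (0.125). In TCKO against T, S1pr3, a receptor for sphingosine-1-phosphate, was at -2.04 and Snx18, a sorting nexin, at -0.49. These genes were picked for their likeness over the same libraries, so such changes follow from the pick and are not separate results.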

How the data were processed

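The authors deposited estimated counts (expected counts) per Ensembl gene for 16 libraries, and, per the file headers, per-sample files that add TPM and effective lengths. Per the submitters' processing notes, bcl2fastq, STAR 2.5.1a, Subread and featureCounts 1.4.6-p5 were used on build GRCm38, with no roles given; the sources used here do not name the quantifier, the annotation or the use of strand. The libraries were made with an oligo-dT SMARTer kit, per the labels' protocols. The labels give the tissue as brain and the protocol as hippocampus, and the age as 40 weeks and as 9.5 months. Of 55774 lines, 287 repeated a gene, and 55487 genes were kept once; all 887792 values equalled the per-sample files within 0.01 reads.

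After rounding of the estimated counts, edgeR 4.0.16 (R 4.3.3) was run with TMM, filterByExpr, group means over 16 libraries, quasi-likelihood F-tests and Benjamini-Hochberg adjustment over 18565 genes, with a threshold of 0.05. CPM was TMM-scaled. Shares of subunits were compared by exact two-sided permutation of TPM shares. Motifs were searched in RefSeq promoter windows of GRCm38.p6, and gene positions and overlaps were taken from GENCODE on GRCm38. The members and all lists were chosen with earlier results of these data known, so lists are described by counts and medians. All 10 members were named, and from each wider list up to 3 called genes with the smallest p in T against WT, up to 3 in TCKO against T and up to 2 in each other comparison; further genes named are said to be picked later or are the few that moved against their list.

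Deviations of same-numbered libraries correlated at 0.12, 0.14 and 0.3 for T and WT, and at 0.1, 0.14 and 0.14 for T and CKO. For CKO and WT they were at -0.05, 0.02, 0.17 and 0.27, and for TCKO and T at -0.08, -0.14, -0.13 and 0.17. TCKO and CKO gave -0.03, -0.02 and 0.04, and TCKO and WT gave -0.05, 0.02 and 0.14. Differently numbered libraries were not compared, so these values do not settle whether the numbers pair libraries. The reported fit has no block, and the replicate number enters only as a block in an alternative fit. Block results are given for some T against WT results, among them the call that changed, and for the 2 members with a called interaction. The labels do not say what a number marks. Alternatives were other normalizations, no filter, DESeq2 1.42.0, limma 3.58.1 voom, the block, an effective length offset, the 8 compared libraries alone, omission of the choroid-rich libraries and of each library in turn. The edgeR step was tested on simulated T against WT data, in which far fewer genes were changed than were called in the real comparison. It recovered 19.3% of 1.5-fold changes, 44.3% of 2-fold changes and 83.8% of 4-fold changes. A gene that did not pass may therefore still have changed, most of all by the smaller of these amounts. The recovery was taken over genes of all levels and is not that of a given gene. Some items are withheld and not reported here. At library totals of 15064309 to 34348284 reads, 3 counts are worth 0.0873 to 0.1991 CPM.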

Additional observations from a re-analysis of the deposited data

Results flagged for a closer look

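Relb in T replicate 2, at 7.32 CPM, stood apart from the other T libraries at 3.96 to 4.43 CPM: its gap was 0.859 of the group's range, above Dixon's critical value for 4 samples. Chance flags about 1 in 20 groups, and 44 groups were examined. Relb stayed called in T against WT without that library.

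The transgene's log2 change differed between the Ch25h genotypes, by the test of the difference itself (TCKO against CKO minus T against WT, edgeR), for 2 of the 10 members and for 5, 1, 0 and 7 genes of the lists of ligands and receptors, adaptors and kinases, further inhibitors and further targets. Among the 7 of these genes that the naming rule picked, the difference was -1.06 for Nfkb1, -2.05 for Icam1, -2.5 for Bcl2a1b, -1.36 for Myd88, -1.97 for Tap1, -2.41 for Tlr7 and -1.71 for Tnfrsf1a, so each changed less with the transgene where Ch25h was lost. The microglia markers shifted alike, with 10 of 12 past the threshold in the same direction, and their part in these differences was not tested. Over all genes tested, 2.45% were called lower and 0.695% higher by this test.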

How the results depend on the processing

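Of 50 member results, 13 were called and 7 of these kept the call in every alternative; 0 of the 13 turned direction, and of 1238 alternative values 1163 kept direction and side of the threshold. The cause was not tested for any change below. Members called higher in T against WT numbered 5 without the choroid-rich libraries and 6 to 8 when each library was left out. Members lower in TCKO against T numbered 1 with only the 8 compared libraries and 1 to 4 by leave-one-out. Members higher in TCKO against CKO numbered 1 without a filter, 2 in DESeq2, 1 with the 8 libraries and 0 to 1 by leave-one-out. Members with a negative interaction numbered 1 with the effective length offset and 1 to 2 by leave-one-out.

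Over all genes, calls moved more. Lower calls in T against WT were 1254 without a filter, 1380 with the 8 libraries, 882 without the choroid-rich libraries and 1162 to 2483 by leave-one-out (2073 in the reported fit). In CKO against WT, higher calls were 55 in DESeq2, 5 without the choroid-rich libraries and 0 to 4 by leave-one-out, and lower calls 59 in DESeq2, 1 in voom, 1 with the 8 libraries and 0 to 3 by leave-one-out. Higher calls in TCKO against T were 477 without a filter, 202 with the 8 libraries, 404 without the choroid-rich libraries and 282 to 1483 by leave-one-out. In TCKO against CKO, higher calls were 184 without a filter, 507 in DESeq2, 29 in voom, 187 with the 8 libraries and 10 to 166 by leave-one-out; lower calls were 68, 280 in DESeq2, 114 with the 8 libraries and 1 to 110 by leave-one-out. Higher interactions were 403 in DESeq2, 52 without the choroid-rich libraries and 38 to 541 by leave-one-out, and lower ones 860 in DESeq2 and 248 to 725 by leave-one-out.

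With the replicate block, 7 members were higher in T against WT, and all genes gave 1949 higher and 1462 lower calls there, 0 lower in CKO against WT, and 4 higher and 1 lower in TCKO against CKO; beside Nfkbie in T against WT it changed no member's call. For the subunit share, pairing of same-numbered libraries, an alternative chosen after seeing the data, gave mean differences of 1.4 percentage points in T against WT (3 pairs, exact two-sided sign-flip p = 0.75), -1.99 in CKO against WT (4 pairs, exact p = 0.5), -1.18 in TCKO against T (4 pairs, exact p = 0.625) and 3.48 in TCKO against CKO (3 pairs, exact p = 0.25). The smallest p that 3 and 4 pairs allow is 0.25 and 0.125.

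The results that turned direction were all uncalled. Nfkb1 in TCKO against CKO was at 0.08 with the effective length offset and -0.17 to 0.01 by leave-one-out. Without the choroid-rich libraries, Nfkb2 and Rela in CKO against WT were at -0.0041 and -0.05, and by leave-one-out at -0.04 to 0.26 and -0.03 to 0.13. Rel in TCKO against CKO was at 0.01 in voom and 0.01 without the choroid-rich libraries, and -0.14 to 0.09 by leave-one-out. Bcl3 in CKO against WT was at -0.94 with the offset and -0.46 to 0.71 by leave-one-out. Leave-one-out gave -0.04 to 0.22 for Nfkb2 and -0.4 to 0.02 for Tnfaip3 in TCKO against CKO, -0.37 to 0.07 for Tnfaip3 in CKO against WT, and -0.25 to 0.18 for the Relb interaction.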
